A study of Mus musculus with 6 samples.

Results

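The genes described here encode the proteins of the cytoplasmic ribosome. They were chosen by name: mouse symbols that begin with Rpl or Rps followed by a number (with an optional letter and digit), the stalk genes Rplp0 to Rplp2, and Rpsa. Of the 15295 genes in the count table, 84 had such a symbol; 2 of these (Rpl6l and Rps4l) are annotated as pseudogenes and were left out. The other 82 are the ribosomal protein genes of this account, 50 of the large subunit and 32 of the small subunit, and all 82 passed the filter on low counts, which left 14498 genes. RefSeq lists 84 protein-coding mouse genes under the same rule, and Rpl3l and Rpl10l, which are not among the 82, were not analysed here.

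RNA was sequenced from 6 whole tumours grown from NA13, a murine bladder cancer line, with the strain given as C57BL/6. According to the labels, NA13 cells of 3 tumours had received a scrambled shRNA (control 1 to 3) and those of 3 tumours an shRNA against Ddr2, the gene of a collagen-binding receptor tyrosine kinase (shDdr2 1 to 3), and IgG was given in all 6. The sources used here do not state the age of the host animals, the number of shRNA sequences or clones, or whether each tumour came from its own animal. P-values therefore reflect the spread among these 6 samples, part of which may be technical. A tumour holds host cells as well as NA13 cells, and in whole tumours fewer cells of a type and less RNA per cell cannot be told apart.

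A ribosome is built from ribosomal RNA and one set of ribosomal proteins, shared between a small subunit, which reads the messenger RNA, and a large subunit, which joins the amino acids. Messenger RNAs of these proteins typically start with a C followed by a run of pyrimidines, the terminal oligopyrimidine (TOP) motif, through which mTORC1 and the RNA-binding protein LARP1 control their translation and stability. MYC is a known transcriptional activator of ribosome production, and growing tumours are known for a high demand for ribosomes. Ribosomal protein genes are also known for many processed copies in the genome, most of them annotated as pseudogenes.

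Library totals ranged from 15560571 to 19522985 counts. The labels were first checked against Ddr2 itself, at 6.42, 16.7 and 20.5 CPM (counts relative to library totals that were adjusted by the trimmed mean of M values, TMM) in control 1, 2 and 3 and 4.84, 19.0 and 28.6 CPM in shDdr2 1, 2 and 3. The groups overlapped, with a log2 fold change of 0.27 ± 0.66 (SE; 3 libraries per group), and the mean was not lower in the tumours labelled shDdr2 (17.5 CPM ± 11.9, SD, against 14.5 CPM ± 7.28), so whole-tumour RNA does not bear out the label. The group and library names below are those of the labels, and shDdr2 1 stands for the library labelled so. Summed over 10 fibroblast markers, levels were 2767, 5073 and 5975 CPM in control 1 to 3 and 1657, 4308 and 11296 CPM in shDdr2 1 to 3; the part of fibroblast RNA in the Ddr2 values was not tested. Of 16 epithelial and urothelial markers, 15 were in the table and summed to between 11637 and 13595 CPM, most of it from the keratin genes Krt5 and Krt14. Among them the basal keratin gene Krt5 lay between 4939 and 5954 CPM in all libraries, whereas the uroplakin gene Upk2 lay between 2.09 and 4.19 CPM.

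Ribosomal protein genes took a share of all counts that differed more between libraries of a group than between the groups. The share was 3.43%, 2.93% and 2.33% in control 1, 2 and 3, and 5.27%, 2.29% and 1.99% in shDdr2 1, 2 and 3. The library labelled shDdr2 1 was the highest of the 6, and the other 2 of its group were the lowest. The group means were 2.90% ± 0.553 (SD, n = 3) for the control tumours and 3.18% ± 1.81 (SD, n = 3) for those labelled shDdr2, and the ranges overlapped. Replicate numbers of the titles were treated as pairs, a choice drawn from these same data. Within pairs the difference in share (shDdr2 minus control) was 1.83 percentage points for number 1, -0.64 for number 2 and -0.34 for number 3. The difference thus had one sign in the first pair and the other sign in the remaining pairs.

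The same order of libraries was seen gene by gene. For each gene, the deviation is its log2 CPM (with a prior count of 2) in a library minus its mean over the 6 libraries. The median deviation over the 82 genes was 0.32, -0.0045 and -0.36 in control 1, 2 and 3 and 1.09, -0.43 and -0.63 in shDdr2 1, 2 and 3, whereas over all genes tested it lay between -0.033 and 0.0079. The library labelled shDdr2 1 held the highest level of 77 of the 82 genes (32.6% of all genes tested were highest there), control 1 that of 4 and control 2 that of 1. Control 1 was second for 68 genes, and shDdr2 3 was the lowest for 64. A gene's level in shDdr2 1 was 2.38 times the mean of the other 5 libraries in the median gene, with a range from 0.659 times (Rpl39l) to 3.62 times (Rpl22l1). The median deviation in shDdr2 1 was 1.04 for large subunit genes and 1.17 for small subunit genes.

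**Figure D1:**
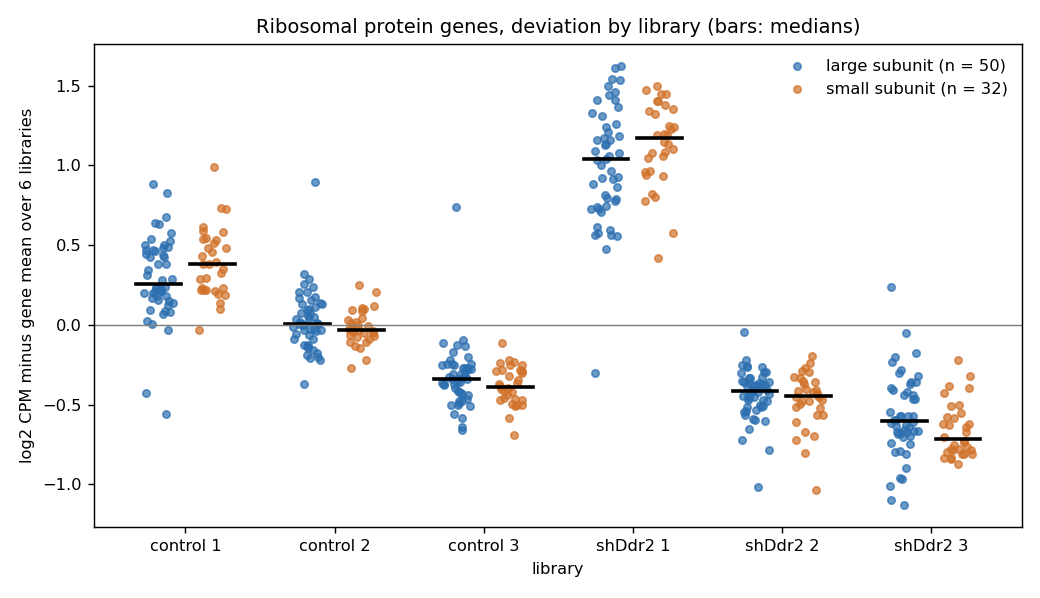
Deviation of each ribosomal protein gene (log2 CPM minus the gene's mean over 6 libraries, vertical axis) in each library (horizontal axis), with large subunit genes in blue, small subunit genes in orange and black bars at the medians. In shDdr2 1 all genes but Rpl39l lie above 0, and in shDdr2 3 the small subunit median is at -0.72.

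The levels of the 82 genes varied together across the libraries. For 76 of them Pearson's r between the gene's log2 CPM and the mean of the other 81 genes, over the same 6 libraries, was above 0.9, and for 81 it was above 0.8. These points share libraries and their scaling, and r is given as a description only. The exception was Rpl39l, with r of -0.20, the paralogue of Rpl39 known for its expression in the testis. Rpl39l lay at 0.647, 1.97 and 1.76 CPM in control 1 to 3 and 0.794, 0.438 and 1.21 CPM in shDdr2 1 to 3. It was lowest in shDdr2 2 and highest in control 2. These levels rest on few counts. Rpl39l (chr16:10170226-10174911 on GRCm38, plus strand, with up to 3 exons in GENCODE M21) was also the only gene whose deviation departed from the set's median by more than 1 on the log2 scale.

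Between the groups, none of the 82 genes passed an adjusted p of 0.05 in edgeR's quasi-likelihood test, in which 0% of all genes tested passed. DESeq2 called none of the 82 either, against 0.276% of the genes to which it gave an adjusted p. None had an unadjusted p under 0.05 in edgeR (0.993% of all genes tested were higher and 0.448% lower at that level), and in none did the groups fail to overlap (2.21% of all genes tested were wholly higher in shDdr2 and 2.11% wholly lower). Of the 82 log2 fold changes (shDdr2 minus control), 64 were above 0 and 18 below (57.1% of all genes tested were above 0). The median was 0.20, against 0.040 over all genes tested. The excess above 0 depended on the method: limma voom gave 45 above 0 and 37 below, and limma on the deposited log2 values gave 46 and 36. The 95% interval reached 1.19 on the log2 scale to either side in the median ribosomal protein gene and 0.76 in the median gene, so differences of this size were not detectable with this spread. The smallest p was 0.191, for Rpl39l, with an adjusted p of 1.00 in edgeR.

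The sign of this median depended on which libraries were used. Without shDdr2 1 all 82 log2 fold changes were below 0 (50.8% of all genes tested were), the median was -0.56, and 30 of the 82 (36.6%) had an unadjusted p under 0.05 in edgeR, against 3.61% of all genes tested in that direction. No gene of the set passed the adjusted threshold there, the lowest adjusted p in edgeR being 0.658. Without both libraries numbered 1, an alternative added after the values were seen, 80 of 81 genes tested were below 0, the median was -0.38, and 15 had an unadjusted p under 0.05 (3.81% of all genes tested). Each of the other libraries moved the median too, which was 0.43 without control 1, 0.19 without control 2, 0.046 without control 3, 0.42 without shDdr2 2 and 0.47 without shDdr2 3. With the replicate number as a block the median was 0.021, with 46 genes above 0 and 36 below.

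Genes were also counted within same-numbered pairs. In the first pair 78 of 82 genes were higher in the library labelled shDdr2 (49.6% of all genes tested). In the second pair 81 of 82 were lower there (51.2% of all genes tested), and in the third pair 72 of 82 were (50.1%). No test was made of these counts, since the genes of a library are not independent of each other.

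**Figure D2:**
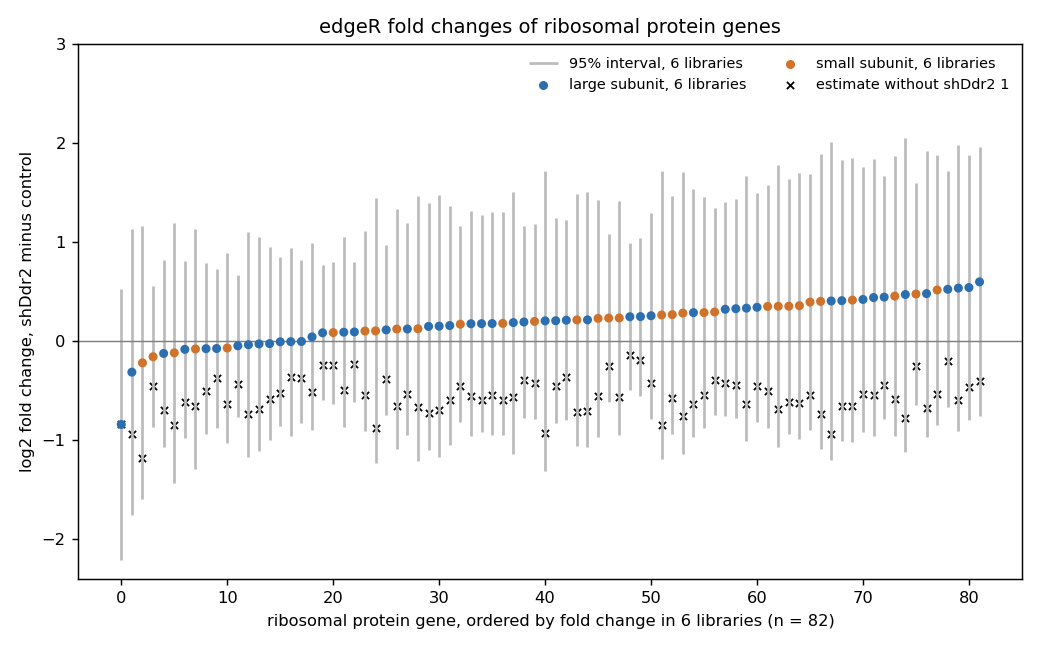
Log2 fold change (shDdr2 minus control, vertical axis) of the 82 ribosomal protein genes, ordered by size (horizontal axis); coloured points are edgeR estimates from 6 libraries, grey lines their 95% intervals, and crosses the estimates without shDdr2 1. Every interval holds 0, and every cross lies below 0, between -1.18 and -0.14.

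The stalk of the large subunit, which recruits the GTPases of translation, includes the genes with the highest levels per kb in the set. Its base protein is encoded by Rplp0 (chr5:115559467-115563727 on GRCm38, up to 7 exons), at 4207, 3323 and 2797 CPM in control 1 to 3 and 6943, 2623 and 2110.5 CPM in shDdr2 1 to 3. Rplp1 (chr9:61913284-61914542) encodes one of the acidic proteins that dimerize on it and lay at 1591, 1571 and 1249 CPM in the control tumours and 2612, 1114 and 967 CPM in those labelled shDdr2. Its partner Rplp2 (chr7:141447370-141451585) lay at 232, 187 and 139 CPM in control 1 to 3 and at 282, 115 and 115 CPM in shDdr2 1 to 3. In all 3 stalk genes shDdr2 1 was highest and the other libraries labelled shDdr2 were lowest. Per kb of exon, Rplp1 (3041 CPM per kb), Rplp0 (2701 CPM per kb) and Rpl8 (2345 CPM per kb) had the 3 highest mean levels of the 82 genes. Rpl8 encodes a protein near the peptidyl transferase centre.

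Rpl5 and Rpl11 encode the proteins that bind 5S ribosomal RNA, and outside the ribosome this particle is known to restrain MDM2, the ubiquitin ligase of p53. Rpl5 (chr5:107900502-107909005) was at 107, 106 and 77.6 CPM in control 1 to 3 and 285, 70.6 and 50.5 CPM in shDdr2 1 to 3. Rpl11 (chr4:136028265-136053428) was at 17.6, 19.8 and 14.0 CPM and at 45.0, 13.5 and 11.6 CPM in the same order. Both were highest in shDdr2 1 and lowest in shDdr2 3, while control 2 was close to control 1 for Rpl5 and above it for Rpl11. The residual SD of Rpl5, 0.95 on the log2 scale, was among the 5 largest. The log2 fold changes were 0.48 ± 0.62 (SE) and 0.44 ± 0.52.

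Spread around the group means differed between the genes, from a residual SD of 0.34 to 1.07 on the log2 scale. Rpl22l1, a paralogue of Rpl22, varied most, at 85.4, 70.3 and 51.0 CPM in control 1 to 3 and 202, 41.6 and 30.5 CPM in shDdr2 1 to 3, a range of 6.62 times. Rpl41, which encodes the very small basic protein at the subunit interface, followed with 1137, 851 and 598 CPM in the control tumours and 2579.9, 584 and 420.2 CPM in those labelled shDdr2. Rpl35a and Rps21 had residual SDs of 1.01 and 0.98. At the other end stood Rpl4, whose product lines the exit tunnel, at 1923, 1775 and 1675 CPM in control 1 to 3 and 2684, 1556 and 1488 CPM in shDdr2 1 to 3, a range of 1.80 times. Rpl29 (419, 363 and 307 CPM against 539, 298 and 318 CPM) and Rps26, which contacts mRNA at the exit channel (771, 637 and 549.9 CPM against 978, 574 and 525 CPM), were the next steadiest by residual SD. Even in these 3 genes shDdr2 1 was the highest library.

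Among genes above 0, the smallest p-values belonged to Rpl35, Rpl13, Rps12, Rpl27a and Rps27l, all between 0.335 and 0.402 before adjustment and 1.00 after it in edgeR. Rpl35 (chr2:39001580-39005624), a protein at the mouth of the exit tunnel, was at 142, 118 and 76.3 CPM in control 1 to 3 and 339.8, 93.6 and 75.3 CPM in shDdr2 1 to 3. Its log2 fold change was 0.60 with a 95% interval from -0.76 to 1.96, and without shDdr2 1 it was -0.40. Rps27l, a paralogue of Rps27 known as a p53 target, was at 143, 118 and 93.4 CPM and 344, 93.0 and 70.5 CPM in the same order. In both genes shDdr2 1 lay above the rest, and the other 2 libraries of its group lay within or below the range of the control tumours.

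Among genes below 0, the smallest p-values after Rpl39l were those of Rps4x, Rpl39, Rps27 and Rplp2, between 0.620 and 0.766 before adjustment and 1.00 after it in edgeR. Rps4x, the X-linked gene of a small subunit protein, was at 402, 289.9 and 245 CPM in control 1 to 3 and 385, 236 and 219 CPM in shDdr2 1 to 3. It is 1 of the 4 genes that were highest in control 1, with Rpl39, Rpl7a and Rps15a (named after their values were seen). Rpl39, whose product lines the exit tunnel, was at 1.40, 0.597 and 0.566 CPM and 1.23, 0.487 and 0.402 CPM in the same order, the lowest level per kb of the 82 genes (1.28 CPM per kb). Rpl7l1, a paralogue of Rpl7 that is known for a part in ribosome assembly, was at 207, 154 and 142 CPM in the control tumours and 304, 143 and 149 CPM in those labelled shDdr2.

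The genes were also grouped by the position of their products and by disease. Of 12 genes whose products line the peptidyl transferase centre or the exit tunnel, 10 were above 0 and 2 below, with a median log2 fold change of 0.17. All 8 genes of the mRNA channel and decoding site were above 0, with a median of 0.21. Of 18 genes mutated in Diamond-Blackfan anaemia, a congenital failure of red cell production, 15 were above 0 and 3 below, with a median of 0.20. None of these genes passed the test. In the set as a whole 64 of 82 genes were above 0, with the median at 0.20, and these counts share its dependence on shDdr2 1.

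Levels per kb of exon ranged from 1.28 to 3041 CPM per kb across the 82 genes, with a median of 118, although most of these proteins are present in equal number in a ribosome. Near-identical copies elsewhere in the table bear on these levels. A copy was taken as a gene of the table outside the 82 with at least 90% identity over at least 50% of the coding sequence of a ribosomal protein gene, a rule set after values had been seen. For 50 of the 82 genes at least 1 copy was found, 89 copies in all, and in 26 families the copies held more counts than the gene itself. Rpl32l, which matches Rpl32 at 96.0% identity, is itself 1 of the 82 genes and was not counted as a copy. With copies added, the median level was 245 CPM per kb and the range 1.28 to 3045 CPM per kb. Rps27, for example, held 1.22% of the counts of its family, with the rest in Rps27rt, whose transcript matches its coding sequence at 100% identity. The corresponding share was 1.76% for Rpl23a, 1.98% for Rpl24, 2.14% for Rpl34 and 2.33% for Rpl13.

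How little tells a gene from its copy is shown by a stretch of 90 bases of the coding sequence (GENCODE M21, GRCm38), for a pair picked after its counts were seen. In the pair Rpl34 (chr3:130726831-130730398) and Rpl34-ps1 (chr6:71124610-71124963) there are 2 mismatches in 354 coding bases, and the stretch covers bases 87 to 176. Capitals mark the mismatched base.
Rpl34: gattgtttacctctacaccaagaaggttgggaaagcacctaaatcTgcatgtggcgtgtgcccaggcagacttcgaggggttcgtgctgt
Rpl34-ps1: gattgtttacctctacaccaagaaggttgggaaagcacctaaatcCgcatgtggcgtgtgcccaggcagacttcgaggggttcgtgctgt

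Over the 6 libraries, Rpl34 had 3133 counts and its copies 143430. The sources used here do not say how reads that match both a gene and its copy were assigned, so the split within these families, and the low level of such a gene, are uncertain. Copies were searched only among genes with a GENCODE match, and 14090 of the 14498 genes tested had an exon length from GENCODE. Separately, 419 gene numbers, which hold 1.90% of all counts, had no RefSeq match and so no symbol to choose them by. Rpl39, Rpl39l, Rpl38 and Rpl9, the 4 lowest genes per kb, had no copy by this rule.

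Adding the copies left the order of the libraries as it was. Genes and copies together took 5.22%, 4.36% and 3.47% of counts in control 1 to 3 and 8.05%, 3.38% and 2.96% in shDdr2 1 to 3. With counts summed within families, 71 of 82 log2 fold changes were above 0 and 11 below, the median was 0.23, and none was called. Rps27 is a gene whose sign differed, at -0.22 on its own and 0.086 with Rps27rt.

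**Figure D3:**
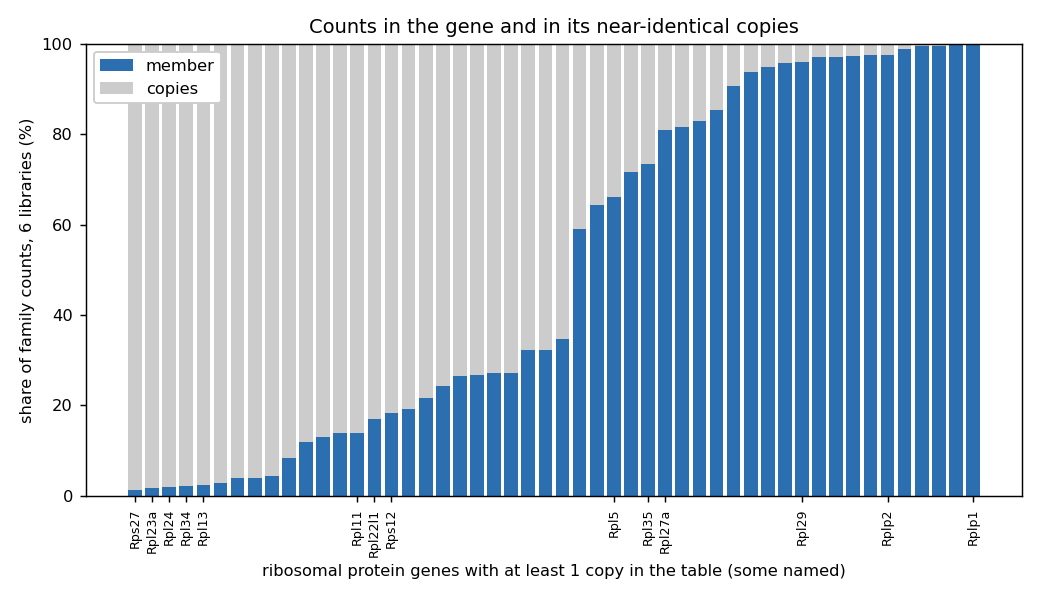
Share of the counts of each family (vertical axis, %, summed over 6 libraries) that fell in the ribosomal protein gene (blue) and in its near-identical copies (grey), for the 50 genes with at least 1 copy (horizontal axis, ordered by share, some genes named). The share in the gene itself runs from 1.22% for Rps27 to 99.9% for Rplp1, and in 26 families it is below that of the copies.

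Promoters were examined because the genes moved together. RefSeq promoter sequences (GRCm38.p6, 250 bases before to 50 bases from the annotated start on) matched 62 of the 82 genes. A TOP-like tract was taken as a run of at least 8 pyrimidines beginning with C and lying within 20 bases of the annotated start, on the gene's strand, a definition set after promoter sequences had been looked at. It was present in 29 of 62 promoters (46.8%), against 12.7% of 27025 promoters of all genes. The stretches below show 80 bases around the start for genes named above, chosen by hand, with the tract in capitals: Rpl35 (chr2:39005112-39005191, minus strand) and Rpl27a (chr7:109519135-109519214, plus strand) from the genes of smallest p, Rplp2 (chr7:141447591-141447670, plus strand) from the stalk, Rpl4 (chr9:64173327-64173406, plus strand) and Rpl22l1 (chr3:28805448-28805527, plus strand) as the steadiest and the most variable gene, and Rps4x (chrX:102189372-102189451, minus strand) and Rpl39l (chr16:10170168-10170247, plus strand), which had no tract in this window.
Rpl35: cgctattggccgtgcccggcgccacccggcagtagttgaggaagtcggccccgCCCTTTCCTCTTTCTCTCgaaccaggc
Rpl27a: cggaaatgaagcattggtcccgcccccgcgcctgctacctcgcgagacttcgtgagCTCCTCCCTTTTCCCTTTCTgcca
Rplp2: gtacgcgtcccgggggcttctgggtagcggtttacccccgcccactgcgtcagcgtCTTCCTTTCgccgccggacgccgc
Rpl4: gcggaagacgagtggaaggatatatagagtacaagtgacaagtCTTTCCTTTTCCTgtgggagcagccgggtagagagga
Rpl22l1: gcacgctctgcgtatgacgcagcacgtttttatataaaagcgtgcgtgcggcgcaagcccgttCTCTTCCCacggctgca
Rps4x: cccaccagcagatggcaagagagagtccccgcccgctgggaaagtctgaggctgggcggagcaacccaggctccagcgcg
Rpl39l: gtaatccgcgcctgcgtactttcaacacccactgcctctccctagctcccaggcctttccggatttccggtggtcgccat

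The 5 other searches used fixed letters over the whole promoter, and their windows overlap those of the tract. CCGGAAG, a form of the site of ETS factors, was found on either strand in 25 of 62 promoters (40.3%), against 9.12% of all promoters. GGGCGG, bound by SP1-like factors, was found on either strand in 37 (59.7%, against 35.9%), and AAGATGGC, a form of the YY1 site, on either strand in 5 (8.07%, against 2.88%). On the gene's strand, TATAAA was found in 7 (11.3%, against 8.88%) and CTCTTTC, which can form part of a TOP tract, in 12 (19.4%, against 3.91%). A match is a description of letters and not of binding, and no match says only that these letters are not in the window. The median deviation in shDdr2 1 was 1.15 for the 29 genes with the tract and 1.10 for the 33 without it, and the ranges, 0.48 to 1.62 and -0.30 to 1.61, overlapped.

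Other genes of the ribosome were compared with the set. Fau, Rack1 and Rpl36al, ribosomal protein genes whose symbols fall outside the name rule, had log2 fold changes of 0.17, 0.26 and 0.18. Rack1, a scaffold protein of the small subunit, was at 1859, 1411 and 1187 CPM in control 1 to 3 and 3254, 1221 and 872 CPM in shDdr2 1 to 3. It was highest in shDdr2 1, second in control 1 and lowest in shDdr2 3.

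Mitochondrial ribosomal protein genes, which are encoded in the nucleus and make the separate ribosome of that organelle, were highest in shDdr2 1 in 76 of 77 cases. Their mean deviation there was 0.86, and 76 of 77 log2 fold changes were above 0 (57.1% of all genes tested), with a median of 0.28 and none called. Without shDdr2 1 the median of this list was -0.24. Mrps22 and Mrps2 had the smallest p-values of this list. Mrps22 was at 29.4, 21.3 and 20.2 CPM in the control tumours and 52.6, 23.3 and 21.9 CPM in those labelled shDdr2. Mrps2 was at 38.6, 36.3 and 39.7 CPM against 46.0, 43.1 and 43.2 CPM, with an unadjusted p of 0.276 in edgeR. It was the only 1 of the 77 genes whose groups did not overlap (2.21% of all genes tested were wholly higher in shDdr2).

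Lists outside the ribosome were also high in shDdr2 1. The mean deviation there was 0.94 over 77 nuclear genes of the respiratory chain and 0.76 over 37 proteasome genes, against 1.06 over the 82 ribosomal protein genes. For 97.4% of the respiratory chain genes and 91.9% of the proteasome genes shDdr2 1 was the highest library, against 93.9% of the ribosomal protein genes. The lists differed in control 1, where the mean deviation was 0.33 for ribosomal protein genes, 0.11 for the respiratory chain and -0.13 for the proteasome.

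Genes that act on ribosome production were described in the same way. Over 84 genes of ribosome assembly and RNA polymerase I the mean deviation in shDdr2 1 was 0.35, and 69 log2 fold changes were above 0 and 15 below, with a median of 0.14. Tsr1, a factor of small subunit maturation, was at 40.7, 39.3 and 58.8 CPM in control 1 to 3 and 53.4, 61.3 and 63.9 CPM in shDdr2 1 to 3. Wdr75, of the small subunit processome, was at 72.5, 63.6 and 67.7 CPM and 108, 68.1 and 75.9 CPM in the same order. Over 15 other translation genes with TOP messages the mean deviation in shDdr2 1 was 0.54, with 10 above 0 and 5 below. They ranged from Eif3h, an initiation factor subunit, at 1633 CPM in shDdr2 1 and 469 to 886 CPM elsewhere, to the poly(A)-binding protein gene Pabpc1, which was lowest in shDdr2 1 at 1363 CPM and lay between 1491 and 1939 CPM elsewhere.

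Lists of regulators had mean deviations near 0 or below it in shDdr2 1. Over 30 genes of mTORC1 and of TOP message control the mean deviation lay between -0.072 and 0.041 in all 6 libraries, with 22 log2 fold changes above 0 and 8 below and a median of 0.054. Mtor, the kinase itself, was at 40.0, 39.4 and 51.2 CPM in control 1 to 3 and 28.3, 50.1 and 61.9 CPM in shDdr2 1 to 3. Larp1 was at 216, 323 and 378 CPM and 174, 363 and 366 CPM in the same order, so both were lowest in shDdr2 1. Both are long genes, with 8785 (Mtor) and 6621 (Larp1) bases of exon. Their deviations in shDdr2 1 were -0.63 and -0.74, where the median over 5016 genes with more than 4 kb was -0.40. The part of length in these 2 levels was not tested. Deptor, an inhibitor of the kinase, and Eif4ebp1 had the smallest p-values of the list, with log2 fold changes of 0.29 and -0.25. The product of Eif4ebp1 represses translation when not phosphorylated. Over 11 genes of the MYC network 3 were above 0 and 8 below, with a median of -0.074 and a mean deviation of -0.22 in shDdr2 1. Myc was at 111, 156 and 115 CPM in the control tumours and 144, 106 and 126 CPM in those labelled shDdr2, and its antagonists Mxd1 and Mxi1 had log2 fold changes of -0.49 and -0.23. None of these genes passed the test.

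**Figure D4:**
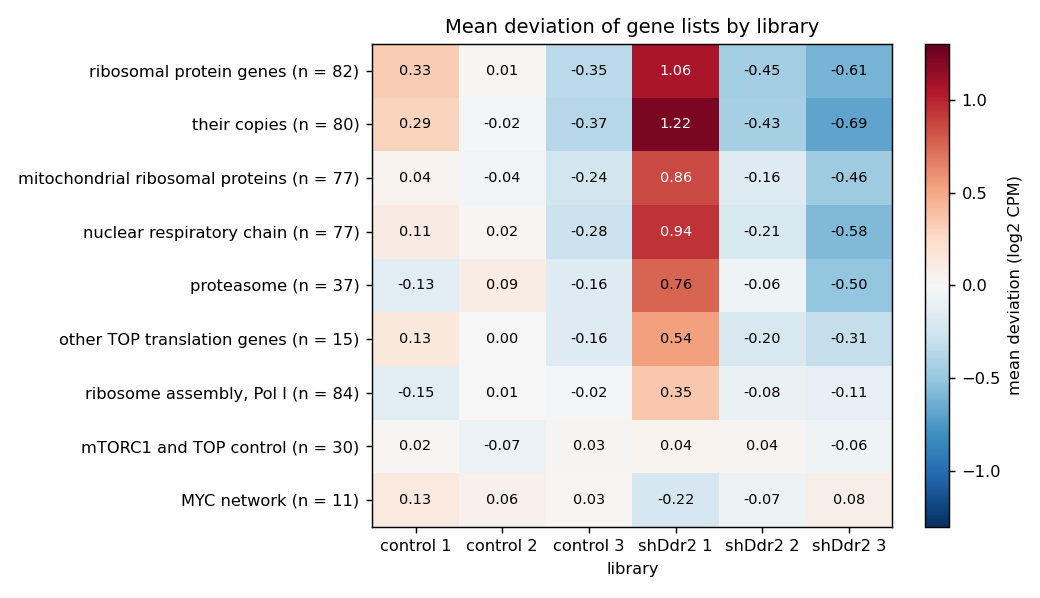
Mean deviation (log2 CPM minus gene mean, colour and printed value) of ribosomal protein genes and of other gene lists (rows, with the number of genes tested) in each library (columns). In shDdr2 1 the value is 1.06 for ribosomal protein genes, 0.94 for the respiratory chain, 0.35 for ribosome assembly and 0.041 for mTORC1 and TOP control.

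Transcript length moved with this pattern. Over 555 other protein-coding genes with less than 1 kb of exon, copies left out, the median deviation was 0.087, 0.016 and -0.22 in control 1 to 3 and 0.82, -0.24 and -0.45 in shDdr2 1 to 3, the order of libraries seen in the ribosomal protein genes. Over 5016 genes with more than 4 kb it was -0.40 in shDdr2 1 and 0.19 in shDdr2 3. Ribosomal protein genes are short, and at their lengths a smooth trend fitted to the other genes gave a median of 0.67 in shDdr2 1. After the trend was subtracted, an alternative added after the values were seen, the median deviation of the 82 genes was 0.28, -0.036 and -0.17 in control 1 to 3 and 0.38, -0.23 and -0.24 in shDdr2 1 to 3. The order of the 6 libraries was kept and the distances were smaller. Between the groups 40 log2 fold changes were then above 0 and 42 below, with a median of -0.012. Among the 82 genes themselves, exon length and deviation in shDdr2 1 were nearly unrelated, with r of -0.030. Exon length is here the union over a gene's protein-coding transcripts, 5395 bases for Rps15a, and can exceed that of a single messenger RNA. Where it does, the trend subtracted in shDdr2 1 is too low. Both this r and the deviations left after the trend carry that limit. The cause of the length trend was not tested.

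**Figure D5:**
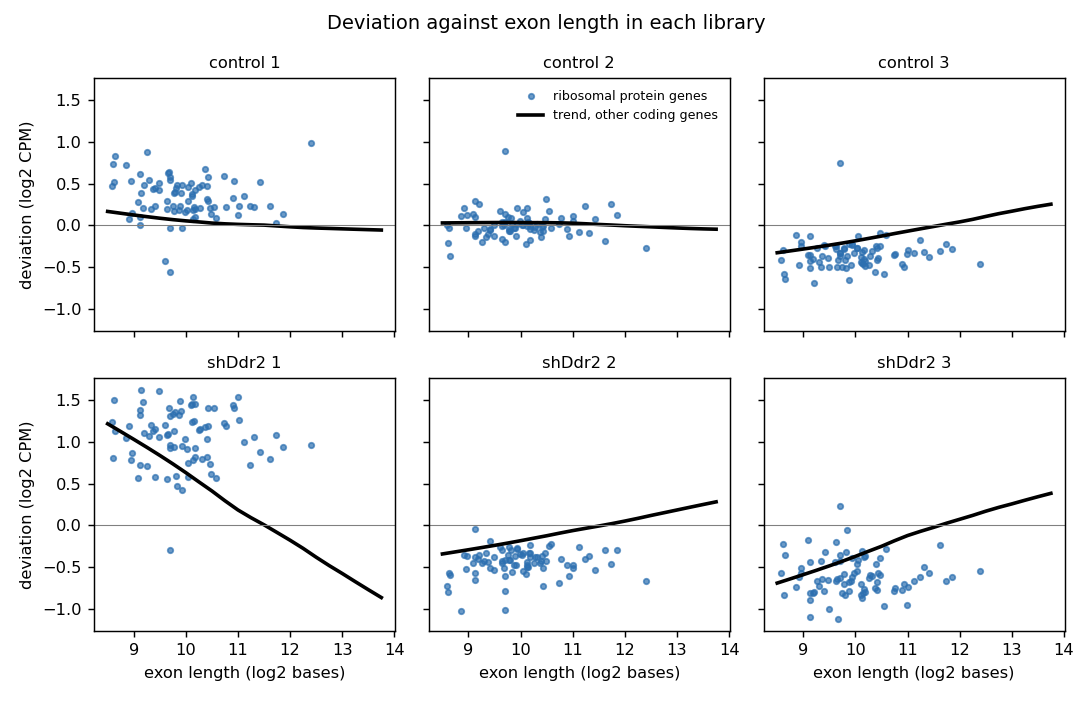
Deviation (log2 CPM minus gene mean, vertical axis) against exon length (log2 bases, horizontal axis) in each of the 6 libraries, with ribosomal protein genes as blue points and a smooth trend over other protein-coding genes as a black line. The trend falls with length in shDdr2 1 and rises with length in control 3, shDdr2 2 and shDdr2 3, and its median at the lengths of the blue points is 0.67 in shDdr2 1 and -0.39 in shDdr2 3.

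Markers of other cell types differed between the libraries as well. Over 10 keratinocyte markers tested, of 11 asked for and found, the summed level was 1098, 875 and 745 CPM in control 1 to 3 and 3818, 862 and 804 CPM in shDdr2 1 to 3, so this list too was highest in shDdr2 1. Gene by gene, the epithelial and urothelial markers differed more than their sum: the mean deviation over the 15 genes was 0.63, 0.29 and 0.093 in control 1 to 3 and -0.96, -0.13 and 0.086 in shDdr2 1 to 3, lowest in the library in which ribosomal protein genes were highest. Of their log2 fold changes 3 were above 0 and 12 below, with a median of -0.39 (0.040 over all genes tested). For 6 of the 15 genes every shDdr2 library lay below every control (2.11% of all genes tested), and 3 were lower at an unadjusted p under 0.05 in edgeR (0.448% of all genes tested). The keratin gene Krt18, named after its values were seen, was at 120, 84.0 and 72.4 CPM in control 1 to 3 and 36.5, 72.1 and 66.6 CPM in shDdr2 1 to 3. Fibroblast markers, given above, were lowest in shDdr2 1 and highest in shDdr2 3, the reverse of the ribosomal protein genes at both ends. Over 7 endothelial markers the sums were 134, 258 and 269 CPM and 79.4, 213 and 405 CPM in the same order. Over 12 skeletal muscle markers, of 13 asked for, they were 15.2, 81.7 and 125 CPM and 1082, 3254 and 439 CPM, highest in shDdr2 2, in which ribosomal protein genes were low. All 12 muscle log2 fold changes were above 0, with a median of 4.58 (0.040 over all genes tested). For 10 of the 12 every shDdr2 library lay above every control (2.21% of all genes tested). At an unadjusted p under 0.05 in edgeR 10 were higher (0.993% of all genes tested), and none passed the adjusted threshold. Over 11 proliferation genes the mean deviation was -0.37, -0.0071 and 0.035 in control 1 to 3 and 0.18, 0.26 and -0.10 in shDdr2 1 to 3. All 11 log2 fold changes were above 0, with a median of 0.25 and none called. Mitochondrially encoded genes took 2.64% of counts in shDdr2 1, the lowest of the 6 libraries, and 4.12% in control 1, the highest. The table's lowest count is 1, so no marker in it is at 0. The part of cell mix and of mitochondrial RNA in the levels of the ribosomal protein genes was not tested.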

How the data were processed

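Bulk RNA from 6 tumours, 3 per group, was analysed. The counts per gene (whole numbers, by Entrez number) were used as the authors deposited them, without change. The authors also deposited log2 values, which are the log2 of the scaled count plus 1 and served for an alternative only. Tools in the submitters' processing notes, listed without roles, are Bowtie2 2.1.0, RSEM 1.2.31 and limma (no version), with the build GRCm38.p5. The sources used here name neither the strand setting nor the gene filter. Libraries were made from poly-T-selected RNA and read as paired ends, per the labels' protocols.

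Symbols came from a RefSeq table (GRCm38.p6) by Entrez number, 14876 of 15295 matching. Exon lengths (union over protein-coding transcripts) and coordinates came from GENCODE M21. Genes were filtered with filterByExpr, scaled by TMM and compared with edgeR 4.0.16 (quasi-likelihood F test, robust, R 4.3.3) on all genes, two-sided, with Benjamini-Hochberg adjustment over 14498 genes and a threshold of 0.05. The common biological coefficient of variation was 35.3%. The test was tried on simulated counts. Copies were found with blastn 2.17.0, and the length trend is a loess fit per library.

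Members and lists were chosen with earlier results of these data known. Named genes are the 5 smallest p-values per direction, the 4 highest and 4 lowest per kb, the 5 most and 3 least variable genes, stalk, 5S particle and paralogue genes, genes departing from the set by over 1 (log2) in a library, the 2 smallest p-values per other list, and Myc, Mtor and Larp1; some genes under this rule are not reported here. Alternatives were other scalings, filters and tools (DESeq2 1.42.0, limma 3.58.1), the replicate block and each library left out. Deviations from group means correlated between same-numbered libraries (r of 0.30, 0.27 and 0.25 across genes, all above 0.1), so the numbers in the titles were treated as pairs. The pairing was thus drawn from these same data. Control 3 gave r of 0.254 with shDdr2 2 and 0.253 with shDdr2 3, so this measure does not set number 3 apart as a pair. No pair of libraries in a group agreed within counting noise (lowest chi-square per degree of freedom 24.8).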

Additional observations from a re-analysis of the deposited data

How the results depend on the processing

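No ribosomal protein gene passed the adjusted threshold under any alternative run, and the direction of their fold changes was not stable. The values by gene below cover only part of the 82 genes, and genes not listed changed sign too. In the main fit 18 of the 82 log2 fold changes were below 0, and without shDdr2 1 all 82 were. With the length trend removed 42 were below 0, and with limma voom 37. Leaving out one library at a time, the median log2 fold change over the 82 genes ran from -0.56 to 0.47 and the number with an unadjusted p under 0.05 from 0 to 30. Where a sign changed or the list median moved, the range over these 6 fits (log2 fold change) was, for ribosomal protein genes: Rpl11 -0.45 to 0.77, Rpl13 -0.20 to 0.81, Rpl22l1 -0.93 to 0.82, Rpl27a -0.46 to 0.91, Rpl29 -0.24 to 0.24, Rpl35 -0.40 to 0.95, Rpl35a -0.93 to 0.60, Rpl38 -0.37 to 0.20, Rpl39 -0.94 to 0.26, Rpl4 -0.23 to 0.24, Rpl41 -0.78 to 0.87, Rpl5 -0.68 to 0.87, Rpl7l1 -0.20 to 0.45, Rpl8 -0.39 to 0.43, Rpl9 -0.68 to 0.25, Rplp0 -0.54 to 0.47, Rplp1 -0.50 to 0.34, Rplp2 -0.69 to 0.093, Rps12 -0.26 to 0.75, Rps21 -0.73 to 0.77, Rps26 -0.25 to 0.25, Rps27 -1.18 to 0.13, Rps27l -0.53 to 0.88 and Rps4x -0.46 to 0.083. For other genes it was: Ddr2 -0.28 to 0.71, Eif3h -0.43 to 0.69, Fau -0.66 to 0.51, Larp1 -0.21 to 0.25, Mrps22 -0.062 to 0.68, Mtor -0.15 to 0.36, Myc -0.13 to 0.14, Rack1 -0.50 to 0.59 and Rpl36al -0.53 to 0.47. For list medians it was: mitochondrial ribosomal proteins -0.24 to 0.51, MYC network -0.24 to -0.072, nuclear respiratory chain subunits -0.35 to 0.53, other TOP translation genes -0.25 to 0.35 and ribosomal proteins outside the name rule -0.56 to 0.49. The median of ribosome assembly and RNA polymerase I ran from -0.049 (without shDdr2 1) to 0.20. Fits with 1 library fewer leave 2 in a group. Without both libraries numbered 1 the values were -0.18 for Eif3h, -0.52 for Fau, 0.045 for Larp1, -0.32 for Rack1, -0.44 for Rpl11, -0.34 for Rpl13, -0.76 for Rpl22l1, -0.31 for Rpl27a, -0.13 for Rpl29, -0.21 for Rpl35, -0.61 for Rpl35a, -0.36 for Rpl36al, -0.19 for Rpl4, -0.54 for Rpl41, -0.61 for Rpl5, -0.027 for Rpl7l1, -0.29 for Rpl8, -0.38 for Rplp0, -0.45 for Rplp1, -0.076 for Rps12, -0.43 for Rps21, -0.12 for Rps26 and -0.38 for Rps27l; 15 ribosomal protein genes had an unadjusted p under 0.05, and list medians were -0.0094 for mTORC1 and TOP control, -0.18 for other TOP translation genes and -0.091 for ribosome assembly. In the same fit, list medians were -0.17 for mitochondrial ribosomal proteins, -0.28 for the respiratory chain, -0.34 for ribosomal proteins outside the name rule and 0.026 for the MYC network. With the length trend removed the values were -0.094 for Fau, -0.080 for Rpl22l1, -0.018 for Rpl29, -0.15 for Rpl35a, -0.14 for Rplp1, -0.038 for Rps21 and -0.026 for Rps26. With limma on the deposited log2 values they were -0.054 for Fau, -0.090 for Rpl22l1, -0.16 for Rpl35a, -0.0031 for Rpl36al, -0.012 for Rplp0 and -0.054 for Rplp1, with limma voom -0.073 for Fau, -0.11 for Rpl22l1, -0.19 for Rpl35a and -0.036 for Rplp1, and with the replicate block -0.053 for Fau, -0.10 for Rpl22l1, -0.15 for Rpl35a, -0.0019 for Rpl36al, -0.012 for Rplp0 and -0.054 for Rplp1; the block changed no call. Rpl38 was 0.0056 with DESeq2 and 0.010 with RLE size factors, Rplp1 -0.0030 on totals without a factor, and Rps27 0.086 with its copies summed. The median over the 82 genes was 0.018 with both limma fits, 0.021 with the block, 0.10 on totals without a factor and 0.23 with RLE size factors; the cause of these shifts was not tested. The alternatives named last (both libraries numbered 1 left out, copies summed, length trend removed) were chosen after seeing the data. Genes under 2 CPM, such as Rpl39 and Rpl39l, are limited by counting error.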
